A study of Mus musculus with 8 samples.

Results

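The 35 genes described here encode enzymes, regulators and carriers of cholesterol and fatty acid synthesis. They were chosen by gene symbol from a list of the pathway, and all 35 were found among the 19150 genes of the deposited count table and passed the filter on low counts that left 18164 genes to test. RNA had been sequenced from whole lungs of mouse embryos (C57BL background, E17.5, late in gestation), freed of oesophagus, trachea and bronchi. Sex and genotype made 4 groups, with 2 libraries for females and 2 for males in controls and likewise in mutants. Mutants of both sexes expressed a constitutively active TGF-β receptor 1, with the TGF-β pathway switched on in the lung epithelium. The labels name neither the promoter nor the Cre driver behind this allele, nor the alleles the controls carry. They also do not say whether the libraries of a group came from separate embryos or pools, so that p-values here measure the spread between these libraries, which may be technical. The libraries of a group carry the numbers 1 and 2, and what the number marks is not stated.

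Cells make cholesterol from acetyl-CoA through mevalonate, farnesyl pyrophosphate and squalene, and fatty acids from the same acetyl-CoA through malonyl-CoA. The genes of both routes are driven by the sterol regulatory element binding proteins, SREBP1 (Srebf1), which favours fatty acid genes, and SREBP2 (Srebf2), which favours cholesterol genes. INSIG1 holds these factors in the endoplasmic reticulum when sterols are plentiful. In the late fetal lung, alveolar type 2 cells make the fatty acids and phospholipids of surfactant, and lipofibroblasts store lipid nearby. Cholesterol synthesis is also needed for new membrane in dividing cells.

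The promoters that SREBPs act on often hold the sterol regulatory element together with a CCAAT box, the site of the factor NF-Y. Promoter windows of 300 bases, from 250 before to 50 after the start of the gene, were taken from the RefSeq table of GRCm38.p6, in which 26 of the 35 genes had an entry. The window of Hmgcs1, the enzyme that makes HMG-CoA, is printed because it was the one member window with the searched sterol regulatory element, TCACNCCAC. It lies at chr13:119690101-119690400 on the plus strand. The windows of Hsd17b7, a sterol ketone reductase, and of Fasn, fatty acid synthase, were chosen after their values were seen, since these genes differed in opposite directions between libraries numbered 2 and 1. They lie on the minus strand at chr1:169969156-169969455 and chr11:120824498-120824797. Capitals mark the sterol regulatory element (TCACCCCAC in Hmgcs1), the E-box (CACGTG) and the CCAAT box, which reads ATTGG where it lies on the other strand.
Hmgcs1: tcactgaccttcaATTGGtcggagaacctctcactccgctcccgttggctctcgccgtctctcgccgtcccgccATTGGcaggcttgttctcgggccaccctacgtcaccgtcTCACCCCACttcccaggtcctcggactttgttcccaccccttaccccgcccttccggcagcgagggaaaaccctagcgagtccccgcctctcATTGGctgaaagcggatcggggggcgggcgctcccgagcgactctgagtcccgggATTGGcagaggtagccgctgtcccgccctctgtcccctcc
Hsd17b7: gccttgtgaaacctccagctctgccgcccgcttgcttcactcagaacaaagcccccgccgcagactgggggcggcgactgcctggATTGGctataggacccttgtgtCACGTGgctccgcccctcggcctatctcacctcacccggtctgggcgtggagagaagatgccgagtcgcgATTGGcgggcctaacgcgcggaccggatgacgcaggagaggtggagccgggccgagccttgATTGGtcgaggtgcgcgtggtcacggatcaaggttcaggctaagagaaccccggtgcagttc
Fasn: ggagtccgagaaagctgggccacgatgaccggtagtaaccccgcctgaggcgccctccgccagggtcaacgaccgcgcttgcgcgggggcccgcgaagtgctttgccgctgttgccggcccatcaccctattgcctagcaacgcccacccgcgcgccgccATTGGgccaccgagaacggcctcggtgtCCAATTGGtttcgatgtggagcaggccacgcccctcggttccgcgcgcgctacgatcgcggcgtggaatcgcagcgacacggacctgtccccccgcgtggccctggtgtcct
The sterol regulatory element of Hmgcs1 began at position -137 from the gene start, between CCAAT boxes at -176 and -45. Hsd17b7 held an E-box at -143 and CCAAT boxes at -165, -73 and -12. Fasn held CCAAT boxes at -90, -62 and -59, and the last 2 of these share bases. Searched on both strands, CCAAT was present in 21 of 26 member promoters, or 80.8%, and in 41.1% of the 27025 genes of the table. It was present in 13 of the 14 matched genes of the sterol route and in 5 of the 9 matched genes of fatty acid and glycerolipid synthesis. CACGTG was present in 5 of 26 members, or 19.2%, against 8.09% of all genes, and TCACNCCAC in 1 of 26 against 1.44%. These are letter matches and not measured sites.

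Reads counted in genes came to 17561012 to 20243205 per library, and mitochondrial genes held 1.81% to 2.48% of them. Xist ran from 1418 to 1818 CPM (reads in the gene scaled to the size of the library) in libraries labelled female and from 2.60 to 3.42 CPM in those labelled male, and Uty was read in the 4 male libraries and had 0 reads in the 4 female ones. Tgfbr1 itself was at 79.6 to 98.6 CPM in controls and 80.5 to 95.9 CPM in mutants, so its level does not check the genotype labels.

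Per length, on the RPKM scale that the authors deposited, the members spanned from 0.353 to 301. Scd2, one of the desaturases that put the double bond into stearoyl-CoA, had the highest level by far, at 301 ± 61.2 RPKM (SD, n = 8). It was followed by Hmgcs1 at 44.9 ± 9.42 RPKM and by Gpam, which starts glycerolipid assembly, at 42.9 ± 7.82 RPKM, and these 2 levels did not differ beyond their spread. The lowest were Fdps (farnesyl pyrophosphate synthase) at 0.353 ± 0.144 RPKM, Dhcr7 (the last step to cholesterol) at 1.24 ± 0.364 RPKM and Hsd17b7 at 1.59 ± 0.579 RPKM. Within the route to farnesyl pyrophosphate the levels ran from 0.353 to 44.9 RPKM, with a median of 5.04 over 7 genes. From the making of squalene to cholesterol they ran from 1.24 to 19.1 RPKM, with a median of 5.18 over 10 genes. The 4 genes of fatty acid synthesis lay between 3.52 and 29.8 RPKM, the 6 of elongation and desaturation between 1.85 and 301 RPKM, and the 4 of glycerolipid assembly between 2.95 and 42.9 RPKM. The order depends on the gene lengths used, since the deposited lengths were 0.461 to 3.41 times the merged exon lengths of GENCODE M21. Per merged exon length, Scd2 stayed at the top with 301 RPKM, and Acly (ATP citrate lyase, the source of cytosolic acetyl-CoA) and Fasn followed with 61.5 and 58.7 RPKM. Reads of some members could have been split with near copies: 39.1% of the 50-base windows of Acat2 transcripts also occurred in Acat3, and 26.2% of those of Fdps, 22.9% of those of Me1 and 17.7% of those of Idi1 occurred in other genes. Acaca shared 30.4% of its windows with other transcripts, and the desaturases Scd1 and Scd2 shared 4.56% and 3.97%, in part with each other. Values of these genes are therefore uncertain in that respect.

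Across the 8 libraries the members differed in how steady they were. Acly was the steadiest, between 306 and 349.8 CPM, a highest to lowest ratio of 1.14. Scd1, the other main stearoyl-CoA desaturase, varied most: its highest library had 20.5 times the CPM of its lowest. Fdps followed with a ratio of 3.94 and Fasn with 2.45, and the median over the 35 genes was 1.72.

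**Figure D1:**
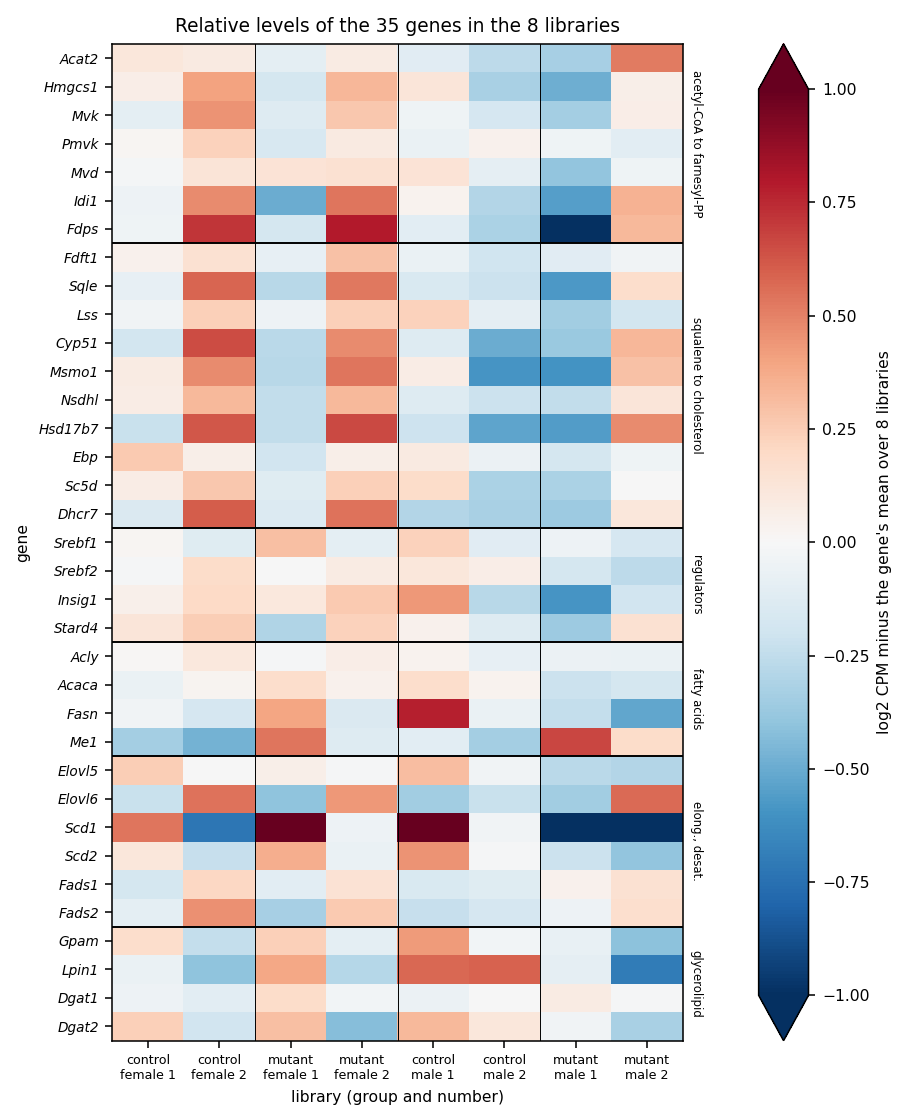
Each row is 1 of the 35 genes, grouped by its step in lipid synthesis, and each column 1 of the 8 libraries; colour gives log2 CPM minus the gene's mean over the 8 libraries, and values beyond the ends of the scale take the end colour. Within both female groups and the mutant males, most genes of the route from acetyl-CoA to cholesterol are redder in library 2 than in library 1, and Scd1 has the strongest colours of any row.

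In males, Scd1, Scd2, Fasn and Lpin1 had lower values in mutants than in controls, while Me1, Fads1 and Fads2 had higher ones, and the widest gap was that of Scd1. No member of the 35 passed the test across all genes in males (edgeR quasi-likelihood test, adjusted p under 0.05), where 1.29% of all genes tested were called; 8 members had an unadjusted p under 0.05, as did 3502 of the 18164 genes tested, a like share. DESeq2 called 3 members in males, Lpin1, Scd1 and Fasn, all lower, against 4.71% of all genes. With the replicate number as a block, 9 members were called, 8 lower and 1 higher. That is 25.7% of members against 16.7% of all genes (9.43% lower and 7.3% higher). The block rests on a pairing of libraries that was taken from these same data and that the labels do not give. In bulk lung RNA, fewer cells of a type and less RNA per cell cannot be told apart.

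Scd1 had 691 and 125 CPM in control males 1 and 2 against 52.1 and 33.7 CPM in mutant males 1 and 2. Both mutant male libraries were the lowest of all 8, and control male 1 was the highest. The difference was -3.25 ± 0.78 (log2, SE) with an adjusted p of 0.0857 in the edgeR quasi-likelihood test, and -2.90 with an adjusted p of 0.000115 with the replicate number as a block. Leaving out 1 library at a time gave differences of -4.01 to -1.54. Scd2 had 2201 and 1604 CPM in control males against 1392 and 1227 CPM in mutant males. These groups do not overlap, and the difference was -0.54 ± 0.21, with an adjusted p of 0.213 without the block and 0.00371 with it.

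Fasn, which builds palmitate, had 1062 and 593 CPM in control males against 528 and 433 CPM in mutant males. The gap between control males 1 and 2 was wider than that between control male 2 and either mutant library. The difference was -0.78 ± 0.27 (adjusted p 0.179 in the edgeR quasi-likelihood test, 0.00377 with the block). Acaca, the acetyl-CoA carboxylase that supplies malonyl-CoA, had 122 and 111 CPM in control males against 93.1 and 95.8 CPM in mutant males, a difference of -0.31 ± 0.10 (adjusted p 0.167, and 0.0396 with the block). Acly showed no such gap, with 332 and 306 CPM in control males and 312 and 310.1 CPM in mutant males.

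Lpin1, a phosphatidate phosphatase that makes diacylglycerol, had 47.2 and 47.7 CPM in control males against 29.9 and 19.6 CPM in mutant males. Control males 1 and 2 were nearly equal and above all other libraries. The difference was -0.94 ± 0.25 (adjusted p 0.113 in the edgeR quasi-likelihood test, 0.00114 with the block). Gpam had 219 and 160.4 CPM in control males against 155 and 123 CPM in mutant males, a difference of -0.45 ± 0.21 (adjusted p 0.280, and 0.00370 with the block). Elovl5, an elongase of polyunsaturated fatty acids, had 224 and 177 CPM in control males against 150.0 and 147 CPM in mutant males. Its mutant male libraries were the lowest of the 8, and the difference was -0.43 ± 0.13 (adjusted p 0.149, and 0.0104 with the block).

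Me1, malic enzyme, a source of NADPH for fatty acid synthesis, had higher values in mutants. It had 56.5 and 48.1 CPM in control males against 96.4 and 68.8 CPM in mutant males. The groups do not overlap, and the difference was 0.66 ± 0.23 (adjusted p 0.180 in the edgeR quasi-likelihood test, 0.00386 with the block). Of the regulators, Srebf2 had 160.1 and 155 CPM in control males against 131 and 124 CPM in mutant males, a difference of -0.31 ± 0.10 (adjusted p 0.168, and 0.0376 with the block). Srebf1 had a difference of -0.18 ± 0.16 with an adjusted p of 0.570. Insig1 had 129 and 79.1 CPM in control males against 63.6 and 83.8 CPM in mutant males, which overlap.

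The 17 enzymes of the sterol route, from Acat2 to Dhcr7, showed no common direction in males: 9 had positive and 8 negative differences, with a median of 0.04 against 0.01 over all genes, and 0 were called by edgeR, by DESeq2 or with the block, with 0 under an unadjusted p of 0.05 in edgeR. Of the 14 genes of fatty acid and glycerolipid synthesis, 9 had negative and 5 positive differences, with a median of -0.35. The groups of males did not overlap for 10 members that were lower in mutants and 3 that were higher. Over all genes 25.5% were lower and 26.9% higher without overlap. The count of lower members is near that background, and the count of higher ones is below it.

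**Figure D2:**
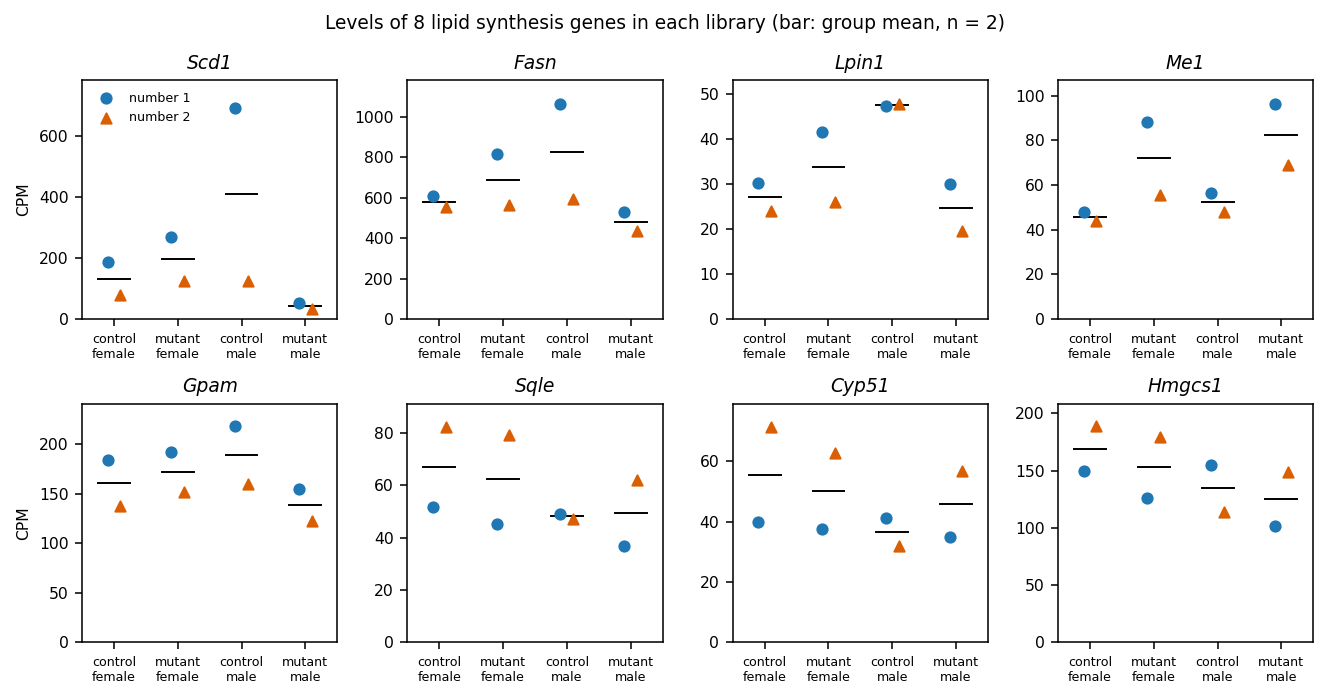
Each panel gives the level of 1 gene (CPM, linear axis from 0) in the 4 groups; circles are libraries numbered 1, triangles libraries numbered 2, and the bar is the group mean of 2 libraries. Scd1 is at 52.1 and 33.7 CPM in mutant males, below the other 6 libraries, while Sqle is at 82.2, 79.2 and 62.0 CPM in library 2 of control females, mutant females and mutant males, above all libraries numbered 1.

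In females, Me1 had higher values in mutants, with a difference of 0.65 against 0.66 in males, and no member passed the test. The count called was 0 (edgeR quasi-likelihood test, against 0.0% of all genes), 1 member, Me1, and 290 of all genes had an unadjusted p under 0.05, and DESeq2 called 0. With the replicate number as a block 0 were called as well, against 0.0771% of all genes. Me1 had 47.9 and 43.8 CPM in control females against 88.3 and 55.6 CPM in mutant females. Both mutant libraries were above both controls, as in males, with a difference of 0.65 ± 0.23 and an adjusted p of 1. Scd1 had 186 and 77.8 CPM in control females against 268 and 124 CPM in mutant females, which overlap, with a difference of 0.57 ± 0.72. Lpin1 had 30.3 and 24.0 CPM in control females against 41.5 and 26.0 CPM in mutant females, a difference of 0.31 ± 0.25 that became -0.06 without mutant female 1. Ebp, the sterol isomerase, and Dgat1, a triglyceride synthase, had differences of -0.23 ± 0.15 and 0.16 ± 0.12, and Acaca had 0.13 ± 0.10, each with an adjusted p of 1. Female groups did not overlap for 4 members higher and 2 lower in mutants, against 11.3% and 10.6% of all genes.

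Over both sexes, Me1 was the member with the smallest p. Its 4 mutant libraries ran from 55.6 to 96.4 CPM and its 4 control libraries from 43.8 to 56.5 CPM, so that the highest control lay just above the lowest mutant. The difference was 0.65 ± 0.16 with an adjusted p of 0.627 (edgeR quasi-likelihood test). No member was called in this comparison, against 0.0% of all genes, while for 2 members and 1061 of all genes the unadjusted p was under 0.05; with the block 0 were called against 0.0165%. DESeq2 called 1 member, Me1, against 0.484% of all genes. In the authors' deposited table, 2 members had a false discovery rate under 0.05, Me1 with a log2 fold change of 0.66 (1.31e-05) and Scd1 with -1.05 (0.0331), against 4.05% of its 19150 genes. Elovl5, Srebf2, Ebp and Lss (lanosterol synthase) followed Me1 in order of p, with differences of -0.27 ± 0.11, -0.18 ± 0.08, -0.18 ± 0.10 and -0.17 ± 0.13. No member had all 4 mutant libraries on one side of all 4 controls, against 1.65% of all genes higher and 1.74% lower.

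**Figure D3:**
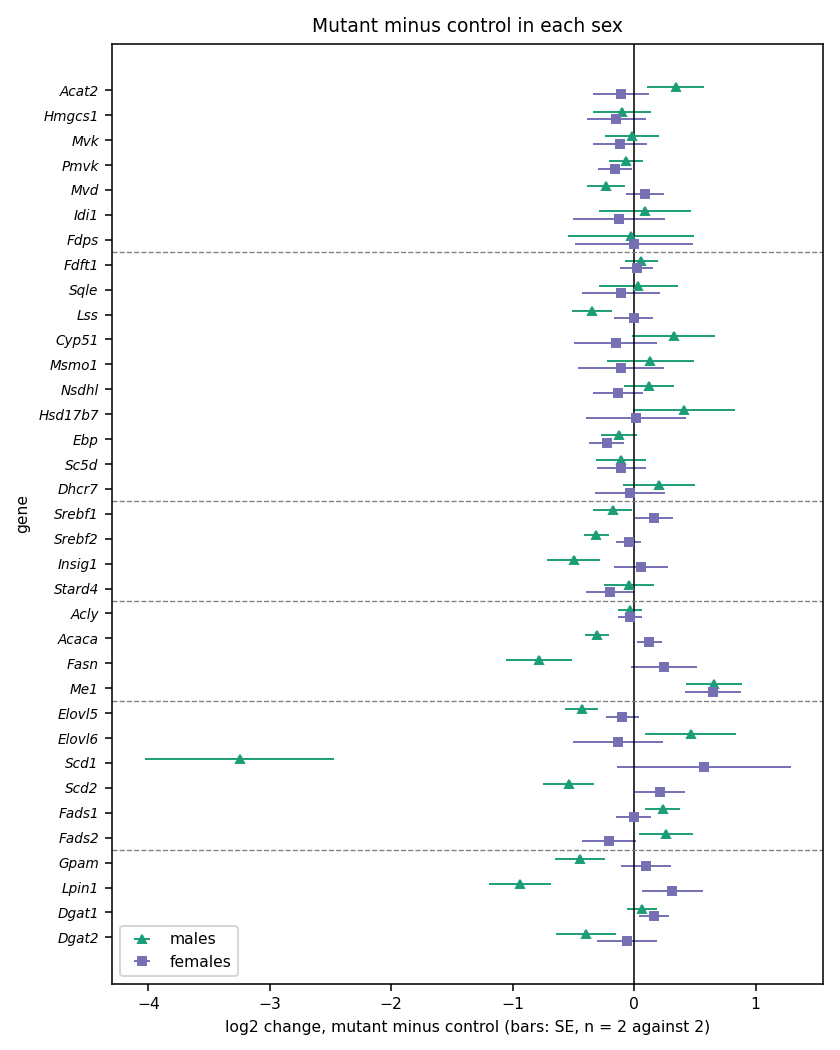
Points give the log2 difference between mutants and controls for each of the 35 genes, triangles for males and squares for females. SE bars come from the fit of all 8 libraries, with 2 libraries in each group compared. Scd1 in males lies at -3.25 and Lpin1 at -0.94, while Me1 is at 0.66 in males and 0.65 in females.

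Whether the difference between mutants and controls itself differed between the sexes was tested as an interaction. The largest gap was that of Scd1, at -3.25 in males and with a positive value in females: the interaction was -3.82 ± 1.05 with an adjusted p of 0.349 (edgeR quasi-likelihood test). For Lpin1 it was -1.26 ± 0.36 (adjusted p 0.355), for Fasn -1.03 ± 0.38 (0.373), for Scd2 -0.75 ± 0.29 (0.374) and for Acaca -0.43 ± 0.14 (0.368). No member was called, against 0.0% of all genes, and 5 had an unadjusted p under 0.05, as did 2266 of the 18164 genes, a like share. DESeq2 called 1 member, Lpin1, against 1.04% of all genes. With the block, 5 members were called, all with a mutant to control difference that was lower in males than in females: Scd1 (adjusted p 0.000619), Lpin1 (0.00328), Scd2 (0.00635), Fasn (0.0100) and Gpam. That is 14.3% of members against 9.33% of all genes. The lack of a call without the block does not show that the sexes responded alike.

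In controls, the values of Scd1 and Fasn in males rested on control male 1. Scd1 had a difference between males and females of 1.63 ± 0.73 (log2, SE), and without control male 1 it was -0.08. Lpin1 had a difference of 0.81 ± 0.25 (adjusted p 0.602 in the edgeR quasi-likelihood test, 0.0126 with the block), and both control males lay above both control females. All 17 sterol route genes had lower means in control males than in control females, with a median difference of -0.33, and none was called. Over all 18164 genes tested, 9495 had a higher value in males. The gap of the sterol genes lay mainly in the libraries numbered 2. Summed levels from the making of squalene to cholesterol were 325.6 CPM in control female 1 and 322.1 in control male 1. In number 2 they were 436.0 and 270.4 CPM. For Dhcr7 the difference was -0.59 ± 0.30. Fasn and Fads2, a desaturase of polyunsaturated fatty acids, had differences of 0.51 ± 0.27 and -0.41 ± 0.22. No member was called in controls, against 0.0385% of all genes, with 1 member and 1413 of all genes under an unadjusted p of 0.05 and 0 members called in DESeq2. With the block 2 were called, Lpin1 and Scd1, against 3.88%.

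In mutants, males had lower values than females for 30 of the 35 genes, 16 of them in the sterol route. Over all 18164 genes tested, 9520 had a higher value in males. The members vary together, and several changed sign without 1 library, such as Msmo1 (-0.78 to 0.19) and Idi1 (-0.66 to 0.47). Scd1 had a difference of -2.19 ± 0.75 (adjusted p 0.866 in the edgeR quasi-likelihood test, 0.00339 with the block). Insig1 was at 103 and 115 CPM in mutant females and 63.6 and 83.8 CPM in mutant males, a difference of -0.56 ± 0.22 (adjusted p 0.904). Acaca, Elovl5 and Srebf2 had differences of -0.30 ± 0.10, -0.31 ± 0.13 and -0.26 ± 0.10. No member was called, against 0.0385% of all genes, with 5 members and 972 of all genes under an unadjusted p of 0.05 and 0 members called in DESeq2. With the block 2 were called, Scd1 and Scd2, both lower in males, against 1.81% of all genes.

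The members also varied within groups, by library number. In libraries numbered 2, Sqle, Dhcr7 and Hsd17b7 of the sterol route were higher than in libraries numbered 1 in each group but control males. The Scd desaturases, Fasn and most glycerolipid genes were lower in number 2. In a model of the 4 groups and the number, 13 members were called (edgeR quasi-likelihood test), 37.1% against 12% of all genes. Of these, 5 were higher in number 2, where 5.18% of all genes were higher, and 8 were lower, against 6.83%. DESeq2 called 13 as well, 5 higher and 8 lower. Of all 18164 genes tested, it called 751 higher and 1074 lower.

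The members called higher in number 2 were Elovl6, which lengthens palmitate to stearate, Sqle (squalene epoxidase, a rate-limiting step), Dhcr7, Fads2 and Hsd17b7. Elovl6 was at 18.3 and 31.2 CPM in control females 1 and 2, 16.2 and 29.0 in mutant females, 16.9 and 18.3 in control males and 16.8 and 31.7 in mutant males. It was higher in number 2 in all 4 groups, by 0.67 ± 0.12 (adjusted p 0.00445), and least so in control males. Sqle was at 51.9 and 82.2 CPM in the control females, 45.3 and 79.2 in mutant females, 49.3 and 47.3 in control males and 36.9 and 62.0 in mutant males. The rise of 0.54 ± 0.12 (adjusted p 0.0116) thus came from 3 of the 4 groups. Hsd17b7 was at 9.64 and 17.3 CPM in the control females, 9.49 and 17.8 in mutant females, 9.74 and 7.81 in control males and 7.64 and 15.6 in mutant males, with a difference of 0.64 ± 0.18 (adjusted p 0.0403). Dhcr7 and Fads2 were higher by 0.48 ± 0.12 (adjusted p 0.0217) and 0.36 ± 0.09 (adjusted p 0.0236). In control males library 2 was at 0.978 times library 1 for Dhcr7.

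Over the 17 sterol route genes, library 2 was above library 1 for 15 genes in control females, 17 in mutant females and 16 in mutant males, but for 1 gene in control males. The median log2 ratios of library 2 to library 1 were 0.33, 0.51, 0.48 and -0.21 in these groups. In all 4 groups together, 0 of the 17 genes were higher in number 2 throughout, against 15.4% of all genes. With control males set apart after their values were seen, 14 of the 17 were higher in each of the other 3 groups. Shares over all genes were not computed for that count or for the counts within a group. Cyp51, the lanosterol demethylase, was at 39.8 and 71.2 CPM in the control females, 37.5 and 62.6 in mutant females and 34.9 and 56.8 in mutant males, but at 41.2 and 32.0 in control males. Hmgcs1 followed the same order, with 149.9 and 189 CPM in the control females, 126 and 179.7 in mutant females, 102 and 149 in mutant males and 155 and 114 in control males. Taken by number, the 17 genes had a median log2 ratio of mutant to control males of -0.35 in number 1, where 16 were lower, and of 0.38 in number 2, where 15 were higher. In females these medians were -0.18 and 0.00. Each of these medians sets 1 library against 1 and rests on the pairing by number, which the labels do not give. The 17 genes vary together and are not replicates, and medians over all genes were not computed here.

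The remaining enzymes of the sterol route had the following levels. Acat2 (acetoacetyl-CoA from acetyl-CoA) was at 43.4 and 42.7 CPM in control females 1 and 2, 37.5 and 42.4 in mutant females, 37.1 and 33.4 in control males and 31.9 and 57.5 in mutant males, so that its highest and lowest libraries were both mutant males. The kinases Mvk and Pmvk, which phosphorylate mevalonate in turn, ran from 15.6 (mutant male 1) to 26.8 CPM (control female 2) and from 20.7 (mutant female 1) to 27.2 CPM (control female 2). Mvd, the decarboxylase after them, ran from 13.8 (mutant male 1) to 20.1 CPM (mutant female 2). The isoprenoid genes varied more than these 3. Idi1, the isomerase, was at 17.4 and 25.2 CPM in the control females, 12.8 and 26.3 in mutant females, 18.5 and 14.7 in control males and 12.4 and 23.0 in mutant males. Fdps was at 2.61 and 4.43 CPM in the control females, 2.39 and 4.66 in mutant females, 2.5 and 2.16 in control males and 1.18 and 3.37 in mutant males. In both genes library 2 was the higher one in each group but control males, and neither was called by number.

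Fdft1, which joins farnesyl units into squalene, ran from 47.5 (control male 2) to 66.8 CPM (mutant female 2), and Lss, which closes the ring, from 31.1 (mutant male 1) to 46.7 CPM (mutant female 2). Msmo1, a sterol methyl oxidase, was at 34.7 and 45.6 CPM in the control females, 27.1 and 47.5 in mutant females, 34.6 and 21.8 in control males and 21.7 and 40.1 in mutant males. Its pattern over the groups was that of Idi1, with library 2 below library 1 in control males alone. Nsdhl, which removes the methyl carbons with Msmo1, ran from 20.2 (mutant male 1) to 30.2 CPM (mutant female 2) and Sc5d, a sterol desaturase, from 20.0 to 30.0 CPM. Ebp lay between 18.3 and 25.03 CPM. Nsdhl and Ebp lie on the X chromosome, and their ranges in males, 20.2 to 26.2 and 18.5 to 22.3 CPM, lay inside those in females, 20.3 to 30.2 and 18.3 to 25.03 CPM, except for the lowest male value of Nsdhl.

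Of the genes outside the enzymes of that route, Stard4, a carrier of cholesterol between membranes, was at 197 and 214 CPM in the control females, 147 and 212 in mutant females, 186 and 165 in control males and 141 and 201 in mutant males, again with library 2 below library 1 in control males alone. Srebf1 ran from 98.3 (mutant male 2) to 136 CPM (mutant female 1). Fads1, which acts beside Fads2 on polyunsaturated fatty acids, had 87.3 and 88.8 CPM in control males against 99.4 and 108 CPM in mutant males, a difference of 0.23 ± 0.14 with an adjusted p of 0.405 (edgeR quasi-likelihood test). Fads2 had 40.0 and 41.9 CPM in control males against 45.4 and 52.7 CPM in mutant males. Both Fads genes thus had no overlap between these groups, but in control and mutant females they did overlap. Dgat1 stayed within 22.5 and 27.5 CPM, and Dgat2 within 18.2 and 30.6 CPM.

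The members called lower in number 2 were Gpam, Scd1, Scd2, Fasn, Me1, Dgat2 (a triglyceride synthase), Srebf1 and Lpin1. Gpam was at 185 and 138 CPM in the control females, 192 and 152 in mutant females, 219 and 160.4 in control males and 155 and 123 in mutant males. It fell by 0.38 on the log2 scale, with an SE of 0.06 and an adjusted p of 0.00165, the smallest among the members. Scd1 fell by 1.39 with an SE of 0.21 (adjusted p 0.00174), and library 2 was at most 0.648 times library 1 in each of the 4 groups. Scd2 fell by 0.35 (adjusted p 0.00659), Fasn by 0.45 (0.0119), Me1 by 0.38 (0.0131), Dgat2 by 0.41 (0.0151), Srebf1 by 0.25 (0.0322) and Lpin1 by 0.39 (0.0326). Library 2 lay on the lower side of library 1 in all 4 groups for 8 members and on the higher side for 3, against 17.1% and 15.4% of all genes.

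**Figure D4:**
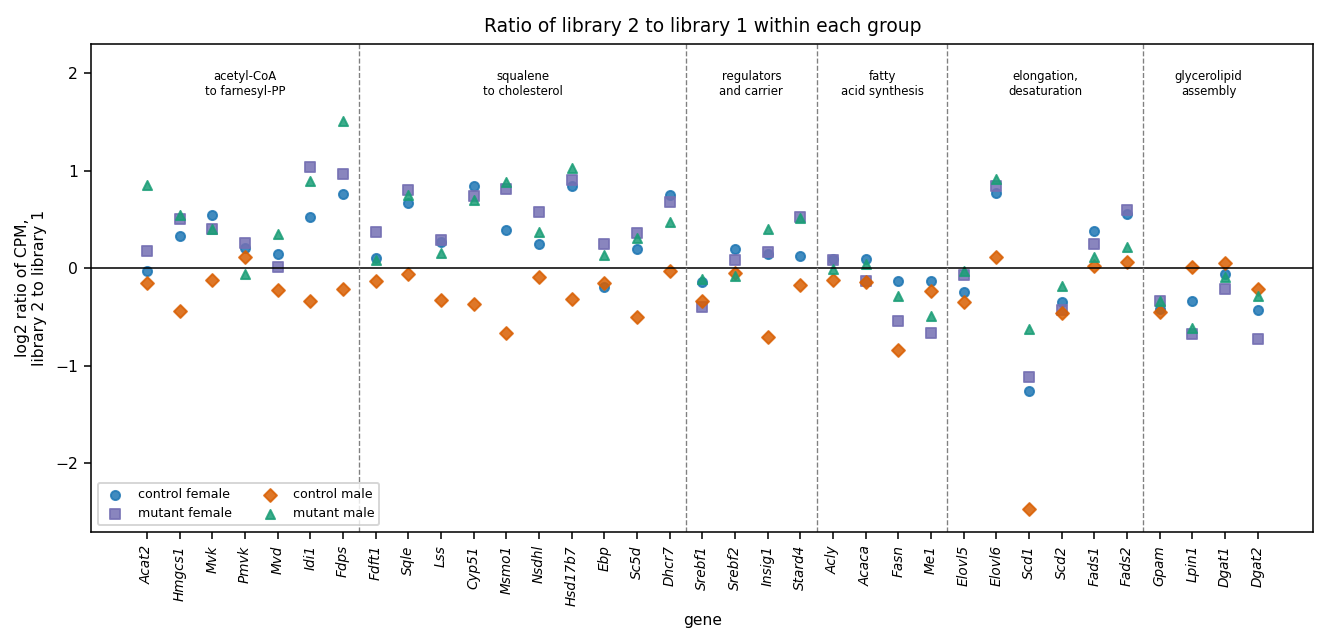
Each point is the log2 ratio of CPM in library 2 to library 1 for 1 gene in 1 group, with genes in pathway order and the 4 groups by colour and shape. In control males (diamonds) the genes from Acat2 to Dhcr7 lie near or below 0, with a median of -0.21, while in the other groups the medians are 0.33, 0.51 and 0.48; Scd1 lies below 0 in all 4.

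Leaving out a library leaves the other library of that group without a partner. The count of members called by number rose from 13 when a control male library was left out and fell when any other was. The count over all genes tested moved the same way, so these shifts are not particular to the members. In the libraries numbered 2, markers of dividing cells were also higher (12 of 12 called) and markers of alveolar type 2 cells lower (12 of 13 rows called, for 12 symbols of which Sftpb has 2 identifiers). Over all genes, 5.18% were called higher and 6.83% lower by number. The summed level of the dividing markers was 2360.0 and 3271 CPM in control females 1 and 2, 1582 and 2807 in mutant females, 1437 and 1988 in control males and 2379 and 3223 in mutant males. That of the type 2 markers was 11616 and 8155 CPM in the control females, 12059 and 9351 in mutant females, 16316 and 10580 in control males and 9704 and 7824 in mutant males. Control male 1, with the highest levels of Scd1, Fasn, Scd2 and Gpam, was the highest library for type 2 markers and the lowest for dividing markers. It was also the highest for summed markers of type 1 cells (5744 CPM), club cells (1423), endothelium (1897), macrophages (328) and mesenchyme (9059). It was not the highest for ciliated, general epithelial or lipofibroblast markers. The part of these cell types in the results was not tested.

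The type 2 and dividing markers also differed by genotype in males. Type 2 markers had a median difference of -0.71 and dividing markers one of 0.71, none called by edgeR. With the block, 10 of 13 type 2 rows were called lower and 12 of 12 dividing markers higher, against 9.43% and 7.3% of all genes. Markers of other epithelial cells had lower medians in mutant males, and some were called by edgeR, all lower: club cells with a median of -2.19 (5 of 7 called), type 1 cells with -1.17 (3 of 9) and ciliated cells with -1.07 (4 of 8). Of the general epithelial markers 1 of 6 was called (Krt8) and of the mesenchymal ones 2 of 7 (Eln and Myh11), all lower, and of 12 ribosomal and early response genes 0. Over all genes, edgeR called 1.29% in males. The part of these markers in the differences of Scd1, Fasn and the other lipogenic genes was not tested either. Markers of lipofibroblasts summed to 788 to 1120 CPM over the 8 libraries, at 787.6 and 1000.4 CPM in control males and at 953 and 993 CPM in mutant males. In males 6 of these 10 markers were higher and 4 lower in mutants, from -0.55 to 1.55 with a median of 0.02. By edgeR 0 were called, and 4 had an unadjusted p under 0.05, as did 3502 of the 18164 genes tested. Of 8 markers of fat, Fabp4 alone was in the table, at 2.22 to 8.90 CPM, and Adipoq, Plin1 and Ucp1 were not listed. Of 8 liver markers Alb was at 1.00 to 2.85 CPM and Apoa2 at 0.161 to 0.530 CPM, with the other 6 not listed.

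Other genes of the pathway were taken from 5 lists by role, with earlier results known, and those named here are among the 4 of a list with the smallest p in males. In males none of them was called by edgeR in any list. With the block, 8 of 27 tested genes of fatty acid synthesis and activation were lower and 1 higher, 6 of 21 of glycerolipid synthesis lower, 6 of 20 of sterol handling lower, 2 of 10 of sterol synthesis lower, and 0 of 19 of SREBP control, against 9.43% of all genes lower. Fads3, a relative of the fatty acid desaturases, had 187 ± 10.4 CPM (SD, n = 2) in control males against 124 ± 15.7 CPM in mutant males, a difference of -0.59 ± 0.13. Acss2, which makes acetyl-CoA from acetate, was at 29.2 ± 3.99 and 17.7 ± 2.05 CPM, a difference of -0.72 ± 0.17. Pcyt1a, which controls the rate of phosphatidylcholine synthesis, was at 156 ± 1.11 and 111 ± 1.38 CPM, a difference of -0.49 ± 0.10 with an adjusted p of 0.0558 (edgeR quasi-likelihood test). Soat1, which esterifies cholesterol, had a difference of -0.78 ± 0.24. Higher values in mutant males, also without a call, were those of Lbr, a sterol reductase of the nuclear membrane, with a difference of 0.28 ± 0.12, and of Mbtps2, the protease that releases SREBPs, with 0.27 ± 0.10. In libraries numbered 2, 10 of the 20 sterol handling genes were lower, against 6.83% of all genes.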

How the data were processed

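RNA was measured in 8 whole lung libraries, 2 in each of 4 groups taken from the sample labels, per the labels' protocols from DNase-treated total RNA with a TruSeq v2 kit. The tools in the submitters' processing notes are STAR 2.5.2b, HTSeq 0.6.1p2, edgeR 3.16.5, cutadapt 1.13 and Trimmomatic 0.35. No source used here gives the genome build, the annotation or the treatment of strand and shared reads, so a gene cannot be told apart from an overlapping or antisense one. The authors deposited 1 table with raw read counts and RPKM per library, per the file headers. It also holds their comparison of mutant with control, per the file headers with a p-value, its false discovery rate, a log2 fold change and a score of the likelihood ratio, which served as an alternative. No source used here gives the terms of that model. The authors' count table starts at genes with 28 reads in all.

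Counts were tested with edgeR 4.0.16 (R 4.3.3): filterByExpr with a minimum count of 10, TMM, quasi-likelihood F tests, two-sided, with Benjamini-Hochberg adjustment over all 18164 genes at 0.05. The model had sex and genotype for the comparison over both sexes, and 4 group means for the others. These fits used all 8 libraries, which shared 1 estimate of the spread. Their SEs are the absolute log2 difference divided by the square root of F. CPM used TMM-adjusted library sizes (factors 0.975 to 1.02). The log2 ratios within a number come from CPM. Coordinates come from GENCODE M21 (GRCm38), by gene ID. The test was tried on simulated data. The alternatives were DESeq2 1.42.0, limma 3.58.1 with voom, other size factors, no filter, the replicate block, each sex alone and 1 library left out.

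Groups share replicate numbers in the labels. Deviations of same-numbered libraries from their group means correlated at 0.180 to 0.626 over 12793 genes in the 6 pairs of groups, all above 0.1, so the numbers were taken to pair the libraries and blocked values are given where they change a call. That pairing comes from the data, not from the labels. Positive correlations over genes that vary together do not show that the numbers pair the libraries, since unpaired libraries could give them too. The lowest correlation, 0.180, was between control and mutant males. Every blocked value in males, and the comparison by number, rests on that pairing, and the sterol genes of control males ran opposite to those of the other 3 groups; whether the number marks the same thing in control males is not known. Libraries of 1 group differed by 13.9 to 20.1 times the sampling variance and were counted as separate samples.

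The members, the gene lists and the tests were chosen with earlier results of these data known. Named with full statistics were the called members of a comparison, up to 12 by p, or the 5 with the smallest p where fewer than 5 were called, and the 3 highest and 3 lowest by RPKM. Of the other pathway genes, up to 4 per list were taken by p in males, and 1 of them is not reported here. Others were chosen after their values were seen. Intervals and SEs cover these libraries only.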

Additional observations from a re-analysis of the deposited data

How the results depend on the processing

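The counts of members called depended on the tool and on the replicate block. Over both sexes DESeq2 called 1 and the deposited comparison 2, against 0. In males DESeq2 called 3 and the block 9, against 0. The interaction gave 1 with DESeq2 and 5 with the block, and the sex comparisons in controls and in mutants gave 2 each with the block, against 0. The block changed no other count of calls. Leaving out 1 library moved the median log2 difference of the members to between -0.27 (without mutant male 2) and 0.046 (without control male 1) in males, to between -0.22 and 0.23 in the interaction, and to between -0.35 and -0.030 in mutants by sex. In the comparison by number it gave 4 to 26 members called, 1 to 18 of them higher and 3 to 8 lower. Lpin1 in females ran from -0.061 (without mutant female 1) to 0.61, and Scd1 by sex in controls from -0.082 (without control male 1) to 2.39. Leaving out a library also removes its group from the comparison by number; the cause of the other shifts was not tested. Of 549 alternatives for 42 results of single genes, 496 kept direction and side of the threshold, 18 gained the call and 2 changed sign. The other 33 lost it, all by number and without 1 library. Only the results by number had a call to lose, and of their alternatives 111 kept it and 33 lost it. With 2 libraries a group, a difference without a call is not shown to be absent, and genes of a few CPM such as Fdps rest on few reads.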
